A study of Mus musculus with 8 samples.

Results

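Transcripts of 10 genes that mark GABAergic neurons were examined in the periventricular tissue of adult mice that lack *Lrig1* (KO) and of wild-type littermates (WT). The genes were *Gad1*, *Gad2*, *Slc32a1*, *Pvalb*, *Sst*, *Vip*, *Npy*, *Lhx6*, *Calb2* and *Th*, picked by their known function with earlier results of these data known, under a rule that uses no measured value, and they are 10 of the 54307 gene identifiers counted. All 10 passed the filter on low counts, which left 17669 genes for testing. Polyadenylated RNA was sequenced in bulk from 1 hemisphere of 4 mice of each genotype, aged 8 weeks, with the area around the lateral ventricle, which contains the ventricular-subventricular zone (V-SVZ), dissected from each brain. KO mice were homozygous for CreERT2 knocked into exon 1 of *Lrig1*, so that the gene is lost in every cell from conception and KO mice alone carry CreERT2. WT mice were their littermates without the insertion, and the labels give a 129 strain background for every mouse (129-Elite in the methods of the study). The WT group held 3 females and 1 male (replicate 2), and the KO group held 2 females (replicates 2 and 4) and 2 males (replicates 1 and 3). The experiment asked which signalling pathways are disturbed when LRIG1, a transmembrane regulator of growth factor receptors, is missing.

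GABA, the main inhibitory transmitter of the forebrain, is made from glutamate by glutamate decarboxylase, whose isoforms GAD67 and GAD65 are encoded by *Gad1* and *Gad2*, and is loaded into synaptic vesicles by the transporter VGAT, encoded by *Slc32a1*. Every GABAergic neuron uses this machinery, including the medium spiny projection neurons of the striatum, which borders the lateral ventricle. Interneuron classes are told apart by calcium-binding proteins (parvalbumin from *Pvalb*, calretinin from *Calb2*), by neuropeptides (somatostatin from *Sst*, VIP from *Vip*, neuropeptide Y from *Npy*), and by *Lhx6*, a transcription factor of interneurons born in the medial ganglionic eminence. Stem cells of the V-SVZ produce interneurons of the olfactory bulb, some of which make calretinin or tyrosine hydroxylase, the dopamine-synthesis enzyme encoded by *Th*. In bulk tissue, fewer cells of a type and less RNA per cell cannot be told apart.

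The depth of a library, as the sum of its rounded gene counts, lay between 47887147 and 74482124. *Lrig1* was at 45.6, 13.5, 41.4 and 34.3 CPM (counts scaled to the library total after TMM normalization) in WT 1 to 4 and at 1.41, 4.15, 1.17 and 2.96 CPM in KO 1 to 4, so the genotype labels held in 8 of 8 libraries. Its log2 fold change (KO over WT) was -3.80 (SE 0.52, adjusted p = 0.286 in edgeR). Even the targeted gene thus missed the threshold of 0.1 in the main fit, and a gene that misses it is not shown to be alike in the genotypes. *Lrig1* passed the threshold in other fits, with an adjusted p of 4.49e-08 in DESeq2 and 0.000176 in edgeR with sex as a covariate. It also passed in edgeR without WT 2 (0.0623), but not with a minimum of 10 counts in every mouse (0.316). Libraries differed in the levels of markers of other brain regions, and why they differed was not tested. Summed CPM of 8 markers of cortical excitatory neurons (the list of 9 without *Camk2a*, which striatal neurons also express) lay between 44.3 and 472 in 6 libraries but was 863 in KO 3 and 1816 in WT 2. Summed CPM of 9 markers of striatal medium spiny neurons was 2806 in WT 2 and between 4328 and 8684 in the other 7 libraries, and summed CPM of 8 septal and hypothalamic markers was 450 in KO 2 and between 17.2 and 107 in the rest. Neuroblast markers, which check for the V-SVZ itself, were present in every library, with *Dcx* at 24.6 to 33.2 CPM, *Sox11* at 25.01 to 43.4 CPM, *Igfbpl1* at 5.46 to 9.999 CPM and *Cd24a* at 17.3 to 34.0 CPM. Since striatal neurons use the GABA machinery and their markers were high in every library, *Gad1*, *Gad2* and *Slc32a1* cannot be read as interneuron genes in this tissue, and the set is called GABAergic genes here.

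For 3 of the 10 genes, *Sst*, *Vip* and *Th*, the stretch of DNA just before the transcription start carries the letters TGACGTC, the core of the cAMP response element through which CREB acts. Promoters were taken from RefSeq (GRCm38.p6), which had an entry for 9 of the 10 genes (*Calb2* was not matched). The element was searched for because it is well known in *Sst*, so the *Sst* match follows from that choice. Whether 3 of the 10 genes is more than other genes would give was not tested. The promoters of these 3 genes are shown because they carry the element. The highest over the lowest CPM was 1.65 for *Sst*, 4.20 for *Th* and 45.3 for *Vip*, and any link of the element to this spread was not tested. The windows are chr16:23890845-23891094 on the minus strand, chr10:5638968-5639217 on the plus strand and chr7:142899996-142900245 on the minus strand. Each is written 5′ to 3′ along the gene, ends at the base before the transcription start, and has the matches in capitals.
Sst: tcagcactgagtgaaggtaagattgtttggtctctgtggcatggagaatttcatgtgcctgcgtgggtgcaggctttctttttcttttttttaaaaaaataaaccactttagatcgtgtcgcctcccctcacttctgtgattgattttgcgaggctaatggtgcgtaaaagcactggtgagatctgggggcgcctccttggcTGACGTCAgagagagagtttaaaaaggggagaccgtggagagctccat
Vip: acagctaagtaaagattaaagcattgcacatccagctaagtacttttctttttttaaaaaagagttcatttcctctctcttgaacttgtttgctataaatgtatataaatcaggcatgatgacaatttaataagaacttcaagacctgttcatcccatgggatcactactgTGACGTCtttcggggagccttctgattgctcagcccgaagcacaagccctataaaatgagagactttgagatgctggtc
Th: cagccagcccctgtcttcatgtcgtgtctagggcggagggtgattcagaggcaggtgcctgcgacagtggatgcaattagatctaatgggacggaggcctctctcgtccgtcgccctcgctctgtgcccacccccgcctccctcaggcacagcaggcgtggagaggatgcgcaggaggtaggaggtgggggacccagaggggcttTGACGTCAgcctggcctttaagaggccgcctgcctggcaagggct
The match begins 48 bases before the start in *Sst*, 79 bases before it in *Vip* and 45 bases before it in *Th*. In *Sst* and *Th* the capitals cover 8 bases, because matches on opposite strands overlap by all but 1 base. Searched on both strands in the same 250 bases, the letters occurred in 914 of 32851 RefSeq promoters (2.78%). That share is by promoter, and the 9 genes had 12 promoters, so it is not of the same unit as the count of genes. A match describes the sequence and was not measured as a bound site.

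The order of the 10 genes was set by their level per transcript length, as TPM (transcript abundance scaled by transcript length and by library) summed over the transcripts of each gene. *Sst* had the highest median over the 8 mice, 395 TPM (range 279 to 602), followed by *Gad1* at 294 TPM (222 to 330) and *Slc32a1* at 179 TPM (101.4 to 214). *Sst* was above *Gad1* in 8 of 8 mice, and *Gad1* above *Slc32a1* in 8 of 8, and only between these latter genes did the ranges not overlap. *Npy* (143.4 TPM, 97.5 to 299) and *Gad2* (142.7 TPM, 76.8 to 191) were not separated, with *Npy* the higher in 3 of 8 mice. Next came *Pvalb* at 34.7 TPM (11.1 to 87.7), *Calb2* at 16.5 TPM (6.75 to 68.8) and *Lhx6* at 13.6 TPM (9.08 to 18.3), each above the next in 5 to 8 of the mice. *Th*, at 5.35 TPM (2.98 to 11.01), and *Vip*, at 4.28 TPM (0.877 to 43.8), were the lowest, and their order was also not settled, since *Th* was the higher in 5 of 8 mice. The peptide genes thus took both ends of the order. Dividing CPM by effective length gave 8 of the 10 genes the same rank and exchanged *Npy* with *Gad2*.

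**Figure D1:**
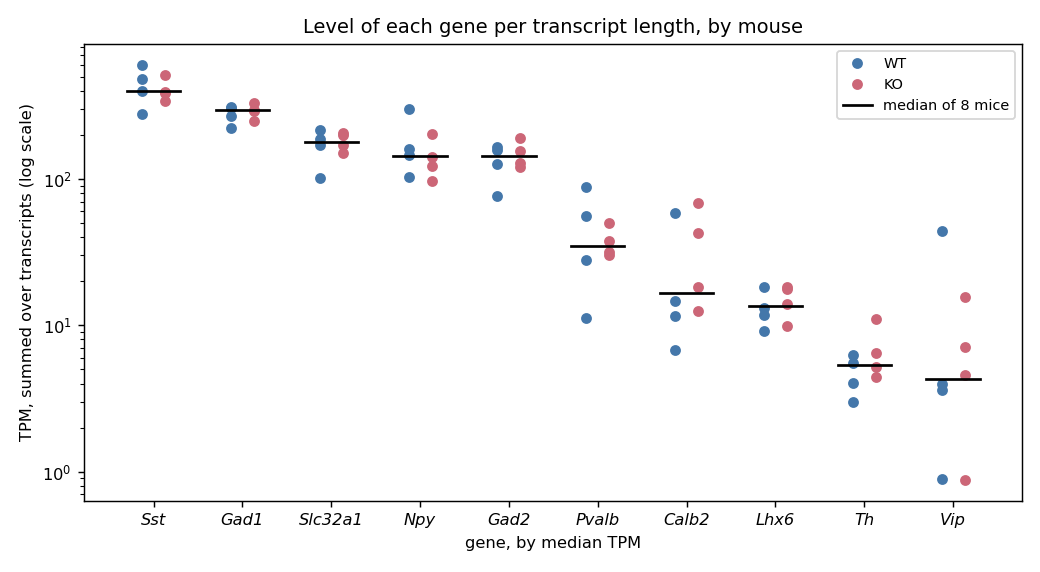
Level of each of the 10 genes in TPM (log axis) in every mouse, with WT in blue, KO in red and the median of 8 mice as a bar; genes are ordered by that median. *Sst* heads the order at 395 TPM and *Vip* ends it at 4.28 TPM, and *Vip* has the widest scatter between mice.

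A single annotated transcript carried 100% of the TPM of *Slc32a1*, *Pvalb*, *Sst*, *Npy* and *Th* in every mouse, although *Pvalb* has 2 annotated transcripts and *Th* has 6. *Vip* and *Calb2* were carried by Vip-201 (99.2% to 100% by mouse) and Calb2-201 (98.7% to 100%). *Gad1* was mostly Gad1-201, which encodes the full-length enzyme, at 81.1% to 92.1% of the TPM of the gene. Most of the rest of *Gad1* was Gad1-206 and Gad1-202. Gad1-206, a processed transcript without an annotated coding sequence, took 0.807% to 13.3% in WT mice and 3.71% to 13.9% in KO mice. Gad1-202, a coding transcript, took 3.92% to 6.07% by mouse and was above Gad1-206 in WT 4 and KO 4. *Gad2* was 96.1% to 98.6% Gad2-201. *Lhx6* was the exception, spread over several coding transcripts, with Lhx6-204 at 21.1% to 49.7% and Lhx6-205 at 17.3% to 39.7%. Lhx6-202 took 0% to 39.9% in WT and 16.8% to 33.0% in KO mice, and Lhx6-201 took 30.0% in WT 1, 22.7% in WT 4, 6.90% in KO 2 and 0% in the other 5 mice. These transcripts share most of their sequence, so how reads were divided among them is less certain than the total of the gene.

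None of the 10 GABAergic genes differed between KO and WT mice at an adjusted p under 0.1 by edgeR's quasi-likelihood test, and none had an unadjusted p under 0.05. Over all genes tested, 1 of 17669 (0.00566%) had an adjusted p under 0.1 and 333 (1.88%) had an unadjusted p under 0.05. The CPM of the genotypes overlapped for each of the 10 genes, while they did not overlap for 1.53% of all genes tested. The log2 fold change (KO over WT) was above 0 for 6 genes and below 0 for 4, with a median of 0.12 (0.063 without KO 2 to 0.20 without WT 3), beside a median of -0.00094 over all genes tested. DESeq2, used as an alternative, also called 0 of the 10, with 0 at an unadjusted p under 0.05 (12 genes, or 0.0615%, were called over all genes). DESeq2 with sex as a covariate called 1 of the 10, *Th*, where 201 genes (1.13%) were called over all genes. It gave 5 of the 10 an unadjusted p under 0.05, beside 4.65% of 30047 genes. That larger set was not filtered on low counts, whereas the 10 genes passed such a filter, so the shares are of unlike sets.

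**Figure D2:**
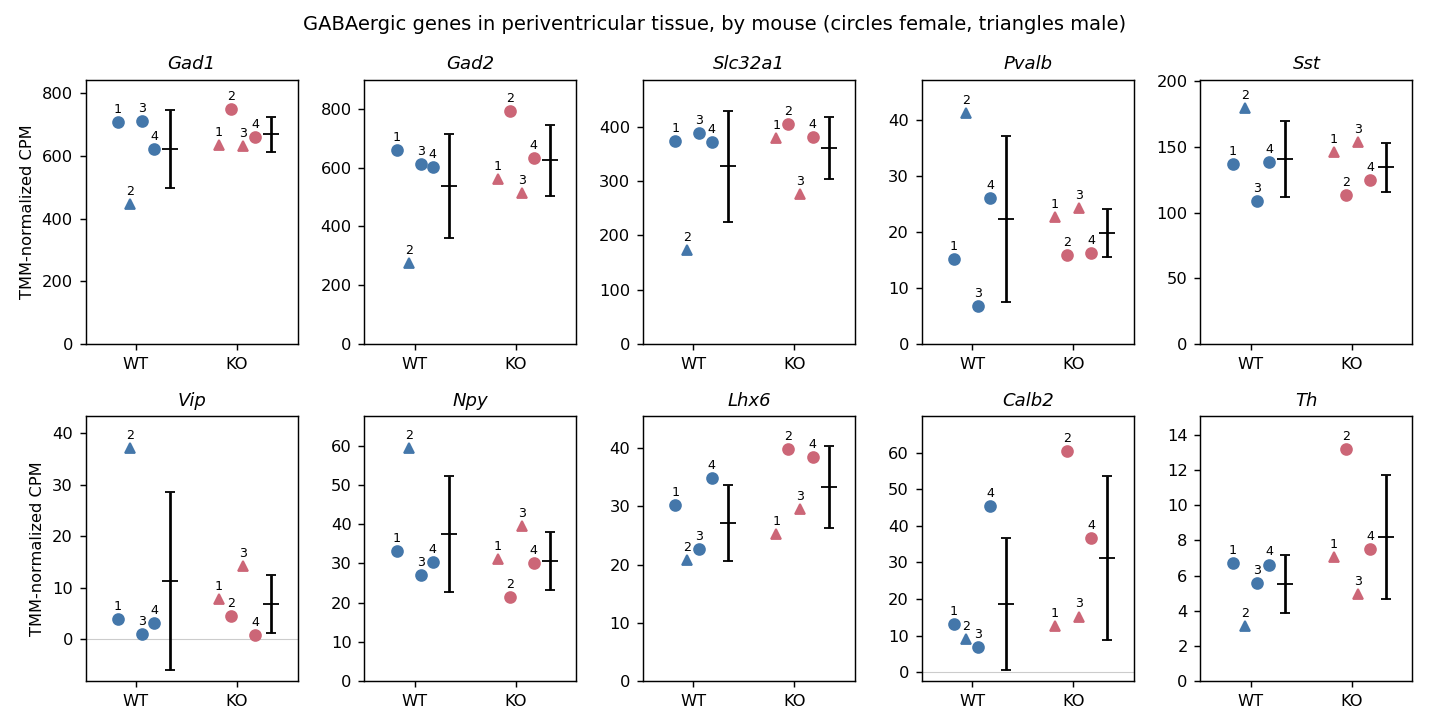
TMM-normalized CPM (linear axes from 0, with room below where an error bar crosses 0) of each GABAergic gene in each mouse, numbered by replicate, with circles for females, triangles for males, and the mean ± SD of the 4 mice of a genotype in black. WT 2 is the lowest of the 8 mice for *Gad1*, *Gad2*, *Slc32a1*, *Lhx6* and *Th* and the highest for *Pvalb*, *Sst*, *Vip* and *Npy*.

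None of the genes that make and package GABA was called. *Gad1* was at 708, 446, 712 and 623 CPM in WT 1 to 4 and at 636, 751, 630 and 661 CPM in KO 1 to 4. WT 2 was the lowest of the 8 mice, and the other 7 lay between 623 and 751 CPM. The means were 622 ± 124 CPM in WT and 670 ± 55.8 CPM in KO mice (SD, n = 4 each), a log2 fold change of 0.11 (SE 0.15, adjusted p = 1.0). *Gad2* was at 661, 277, 612 and 603 CPM in WT and at 562, 791, 512 and 633 CPM in KO mice. WT 2 again was the lowest and KO 2 the highest, and the log2 fold change was 0.22 (SE 0.26, adjusted p = 1.0). *Slc32a1* was at 374, 174, 389 and 372 CPM in WT and at 379, 404, 277 and 381 CPM in KO mice, with a log2 fold change of 0.14 (SE 0.25, adjusted p = 1.0). WT 2 was below the other 3 WT mice in all 3 genes. Without WT 2 the log2 fold changes of *Gad1*, *Gad2* and *Slc32a1* were -0.026, -0.0023 and -0.071, so the direction of each rested on that library. Exons of *Slc32a1* overlap those of Gm14205 on the opposite strand, which had 15 to 59 counts per library, against 10629 to 24185 for *Slc32a1*. Exons of *Lhx6* overlap those of Gm27953 on the same strand, which was not analysed here.

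A ratio taken within a library does not depend on how libraries were normalized to each other. *Gad1* over *Gad2* by CPM was 1.07, 1.61, 1.16 and 1.03 in WT 1 to 4 and 1.13, 0.949, 1.23 and 1.04 in KO 1 to 4, and the genotypes overlapped. WT 2 had the highest ratio and KO 2 the lowest. *Slc32a1* was 24.1% to 30.3% of the summed CPM of *Gad1* and *Gad2* in WT mice and 24.2% to 31.6% in KO mice.

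*Pvalb* and *Lhx6* belong with *Sst* to the interneurons of the medial ganglionic eminence, but did not follow one pattern over the mice. *Pvalb* was at 15.2, 41.2, 6.86 and 26.1 CPM in WT and at 22.7, 16.0, 24.2 and 16.2 CPM in KO mice. The highest and the lowest mice were both WT, and the KO values lay between them (log2 fold change -0.18, SE 0.46, adjusted p = 1.0). *Lhx6* was at 30.3, 20.7, 22.7 and 34.8 CPM in WT and at 25.3, 39.9, 29.5 and 38.5 CPM in KO mice. KO 2 and KO 4 were the highest and WT 2 the lowest, with WT 1 and WT 4 among the KO values (log2 fold change 0.30, SE 0.20, adjusted p = 1.0). *Sst* had the smallest ratio of the highest to the lowest mouse among the 10 genes, at 137, 179, 109 and 139 CPM in WT and at 146, 113, 154 and 125 CPM in KO mice. Its means were 141 ± 29.04 CPM in WT and 134 ± 18.7 CPM in KO mice (SD, n = 4 each; log2 fold change -0.07, SE 0.16, adjusted p = 1.0). Without WT 2 the log2 fold change of *Pvalb* became 0.30 and that of *Sst* 0.067, while that of *Lhx6* was 0.19.

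*Vip*, a peptide of interneurons born in the caudal ganglionic eminence, varied the most. It was at 3.94, 37.1, 1.002 and 3.08 CPM in WT and at 7.71, 4.38, 14.1 and 0.820 CPM in KO mice. WT 2 and KO 3 stood above the rest, and the lowest mouse of each genotype was near 1 CPM. The highest over the lowest mouse came to 45.3, a ratio larger than that of 99.6% of the genes tested, whose median was 1.53. The log2 fold change was -0.74 with a standard error of 1.11 (adjusted p = 1.0), and it was 1.33 without WT 2. *Npy* was at 33.2, 59.5, 27.0 and 30.3 CPM in WT and at 31.1, 21.4, 39.6 and 30.1 CPM in KO mice. WT 2 and KO 3 were once more the highest, and 6 mice lay within 21.4 to 33.2 CPM (log2 fold change -0.29, SE 0.27, adjusted p = 1.0; 0.018 without WT 2).

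*Calb2* split the mice in a different way. It was at 13.2, 8.97, 6.93 and 45.4 CPM in WT and at 12.5, 60.6, 15.2 and 36.6 CPM in KO mice. KO 2, WT 4 and KO 4 were at 36.6 CPM or above and the other 5 mice at 15.2 CPM or below, so each genotype had mice in both ranges. The log2 fold change was 0.75 (SE 0.69, adjusted p = 1.0), and it fell to 0.20 without KO 2 and reached 1.69 without WT 4. The same 3 mice were the 3 highest for 7 of the 8 septal and hypothalamic markers, whose summed CPM was 450 in KO 2, 107 in WT 4, 86.9 in KO 4 and at most 46.8 in the others. The part of these markers in the *Calb2* values was not tested.

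*Th* was at 6.73, 3.14, 5.56 and 6.63 CPM in WT and at 7.05, 13.2, 4.97 and 7.54 CPM in KO mice. KO 2 stood above the other KO mice, and KO 3 lay below 3 of the 4 WT mice. The means were 5.51 ± 1.67 CPM in WT and 8.19 ± 3.51 CPM in KO mice (SD, n = 4 each), a log2 fold change of 0.57 (SE 0.33, adjusted p = 1.0), which was 0.24 without KO 2. With sex as a covariate it was 0.79 in edgeR (SE 0.21, adjusted p = 0.555) and 0.79 in DESeq2 (SE 0.22, adjusted p = 0.0434), the latter being the sole call among the 10 genes in the settings run. *Th* is also in the study's own table of differentially expressed genes, which was chosen on these mice, so its direction is not independent evidence. *Ddc*, which encodes the decarboxylase after tyrosine hydroxylase in dopamine synthesis, was 1.48 to 1.75 times *Th* by CPM in WT mice and 1.36 to 1.82 times in KO mice. Of the transporters and factors that define dopamine and noradrenergic neurons, some were close to 0 and some were not. *Slc6a3*, the dopamine transporter, reached at most 0.527 CPM, *Pitx3*, a factor of midbrain dopamine neurons, 0.0491 CPM, and *Dbh*, the noradrenaline-synthesis enzyme, 0.345 CPM. *Slc18a2*, the vesicular monoamine transporter, lay between 0.245 and 6.01 CPM with its highest value in KO 2, as for *Th*, and *Nr4a2*, a factor of dopamine neurons that other neurons also express, between 1.58 and 29.2 CPM with its highest value in KO 3.

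**Figure D3:**
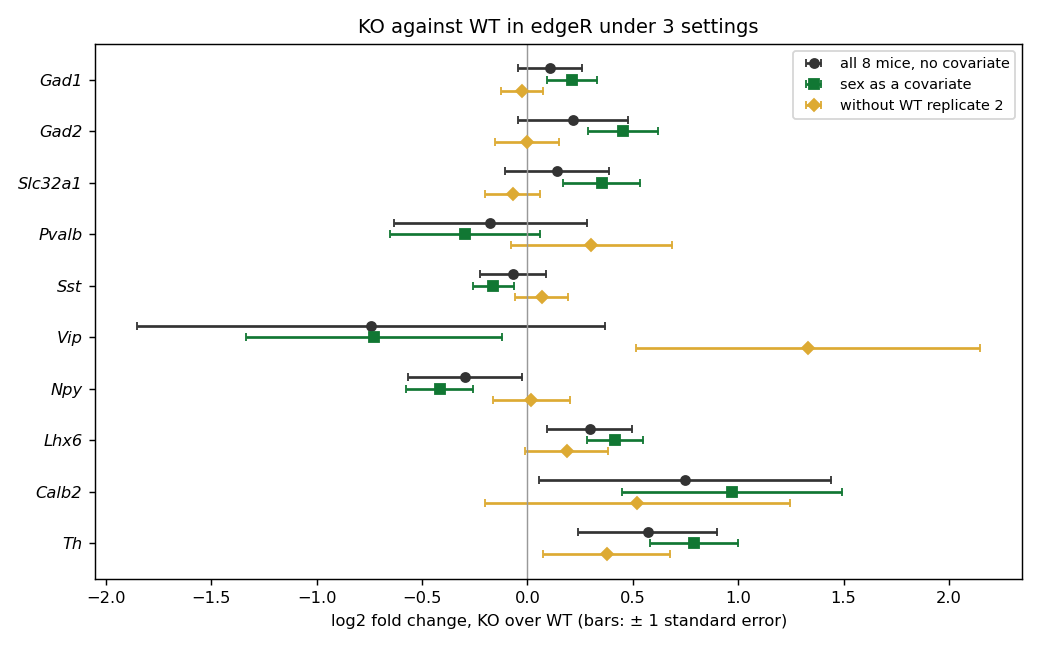
Log2 fold change (KO over WT) of each GABAergic gene with 1 standard error, in edgeR with all 8 mice, with sex as a covariate, and without WT replicate 2. Leaving out WT 2 moves 7 of the 10 genes across 0, and *Lhx6*, *Calb2* and *Th* stay above 0.

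Sex as a covariate moved the values of several of the 10 genes, WT 2 being the sole WT male. In edgeR with that covariate 0 of the 10 genes had an adjusted p under 0.1 (0.0113% of all genes did) and 4 had an unadjusted p under 0.05, a level that 6.95% of all genes reached. The 4 were *Th*, *Lhx6*, *Gad2* and *Npy*. Their adjusted p, over all genes tested, lay between 0.555 and 0.662. *Gad2* was then 0.45 (SE 0.17) and *Lhx6* 0.41 (SE 0.13) on the log2 scale, both above 0, and *Npy* was at -0.42 (SE 0.16). Sex and the position of WT 2 cannot be told apart within the WT group.

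Across the mice the 10 genes fell along opposite orders. WT 2 had the highest CPM of *Pvalb*, *Sst*, *Vip* and *Npy* and the lowest of *Gad1*, *Gad2*, *Slc32a1*, *Lhx6* and *Th*. KO 2 had the highest CPM of 6 genes, *Gad1*, *Gad2*, *Slc32a1*, *Lhx6*, *Calb2* and *Th*, and WT 2 or KO 2 was thus the highest mouse for every one of the 10. KO 3 was second to WT 2 for *Sst*, *Vip* and *Npy*. The same pair of mice had the 2 highest values of 8 of the 9 cortical excitatory markers, the exception being *Camk2a*, and the 3 male mice were the 3 highest in the sum of the 8 other markers. *Slc17a7*, the vesicular glutamate transporter of cortical excitatory neurons, was at 1356 CPM in WT 2, 648 CPM in KO 3 and 5.45 to 368 CPM in the other 6 mice. WT 2 was also the lowest mouse for 9 of 9 striatal markers and for 5 of 5 markers of cholinergic neurons. The part of these marker levels in the GABAergic values was not tested.

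**Figure D4:**
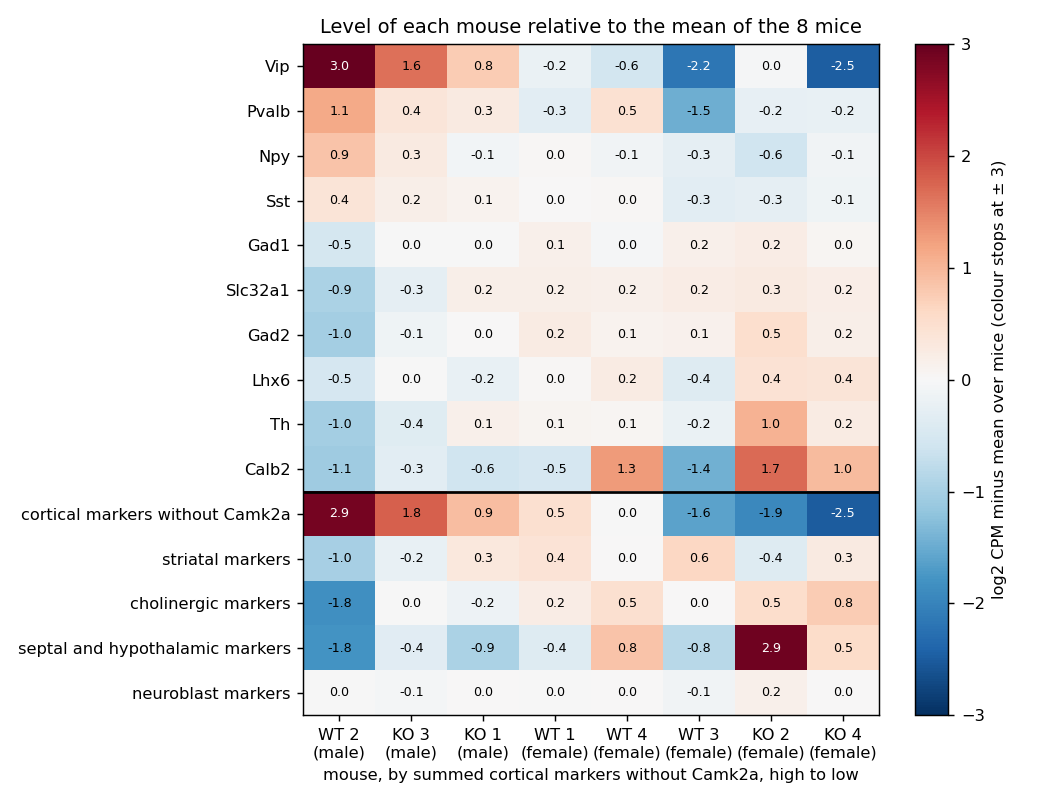
Log2 CPM of each mouse minus the mean of the 8 mice for the 10 GABAergic genes (above the line) and for summed marker lists (below it), with mice ordered by the summed cortical markers from high to low and colour running from blue (below the mean) to red (above it). *Vip*, *Pvalb*, *Npy* and *Sst* are highest in WT 2, at the left, where *Gad1*, *Gad2*, *Slc32a1* and *Th* are lowest.

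Shares of *Gad1* plus *Gad2* in the same library combine values already given, and WT 2, high in the peptides and low in *Gad1* and *Gad2*, is set apart in them by both. *Vip* was 5.14% of the summed CPM of *Gad1* and *Gad2* in WT 2, 1.24% in KO 3 and between 0.0633% and 0.644% in the other 6 mice. *Npy* was 8.23% in WT 2, and 2.04% to 2.47% in the other WT mice and 1.39% to 3.47% in KO mice. *Sst* was 24.8% in WT 2, 8.21% to 11.3% in the other WT mice and 7.33% to 13.4% in KO mice. *Pvalb* was 5.70% in WT 2 and at most 2.12% elsewhere. *Lhx6* did not set WT 2 apart in this way, at 2.87% in WT 2 and 1.72% to 2.97% over the other 7 mice. For each of these ratios the genotypes overlapped, with medians in WT and KO mice of 10.7% and 10.9% for *Sst*, 2.45% and 2.46% for *Npy*, and 0.270% and 0.464% for *Vip*. For *Calb2* the medians were 1.102% in WT and 2.08% in KO mice and for *Th* 0.463% and 0.585%, also with overlap.

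Likeness to the GABA machinery was measured as Pearson's r, over the 8 mice, between the log2 CPM of a gene and the mean log2 CPM of *Gad1*, *Gad2* and *Slc32a1*, and is given as a description of mice that share their libraries. The 5 most alike of the genes tested were *Abat* (r = 0.989), *Isl1* (r = 0.978), *Zfp667* (r = 0.978), *4930447K03Rik* (r = 0.977) and *Prkaa1* (r = 0.976). *4930447K03Rik* was close to 0 in every library, at 0.0164 CPM in WT 2 and 0.133 to 0.224 CPM in the other 7 mice, so its r is less certain. *Abat* encodes GABA transaminase, which breaks GABA down, and *Isl1* is a transcription factor of striatal and cholinergic neurons. *Abat* was at 391 CPM in WT 2 and between 558 and 739 CPM in the other 7 mice, and *Isl1* was at 4.48 CPM in WT 2 and between 15.5 and 22.3 CPM in the rest, and WT 2 was the lowest mouse for each of the 5. Among the 10 GABAergic genes r was 0.864 for *Th*, 0.651 for *Lhx6* and 0.465 for *Calb2*. It was negative for *Pvalb* (-0.705), *Vip* (-0.758), *Sst* (-0.847) and *Npy* (-0.948).

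Further genes came from 6 lists written by function, for GABA turnover, GABA receptors, lineage factors, other subtype markers, peptide receptors and dopamine synthesis. Of these, 82 genes were tested in edgeR. Without a covariate it called 0 at an adjusted p under 0.1, beside 0.00566% of all genes tested. It gave 1 an unadjusted p under 0.05, a level that 1.88% of all genes tested reached. DESeq2 without a covariate, run without that filter on low counts, called 0 of 86 list genes. It gave 6 of them an unadjusted p under 0.05, beside 1.66% of 29999 genes. Of 7 tested genes of GABA uptake and breakdown, 5 had a log2 fold change above 0 and 2 below (median 0.063, and -0.0067 without KO 2 to 0.15 without WT 4). *Abat* had a log2 fold change of 0.09 (SE 0.19).

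Of 17 tested GABA receptor genes, 11 were above 0 and 6 below (median log2 fold change 0.066, and 0.013 without KO 3 to 0.18 without WT 2). *Gabrg1*, a gamma subunit of the GABA-A receptor, was at 49.4, 30.6, 42.6 and 51.5 CPM in WT 1 to 4 and at 55.9, 88.7, 54.3 and 59.7 CPM in KO 1 to 4. The genotypes did not overlap, and the lowest KO mouse was close to the highest WT mouse. Its log2 fold change was 0.57 (SE 0.20), with an unadjusted p under 0.05 and an adjusted p of 1.0 in edgeR, and was 0.38 without KO 2. *Gabrg1* too is in the study's own table chosen on these mice. Of the most abundant receptor genes, *Gabbr1*, a subunit of the GABA-B receptor, had a log2 fold change of -0.021 (SE 0.090) and *Gabrd*, the delta subunit of the GABA-A receptor, -0.094 (SE 0.22). Of the 82 list genes tested, 1, *Gabrg1*, did not overlap between the genotypes, beside 1.53% of all genes tested.

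Transcription factors of GABAergic lineages divided into 11 above 0 and 8 below of 19 tested (median log2 fold change 0.028, and -0.029 without WT 2 to 0.11 without KO 3). *Meis2* and *Dlx6*, homeobox factors of the ganglionic eminences, the former kept in striatal neurons, were the most abundant per length. *Meis2* was at 208 to 414 CPM in WT and 270 to 380 CPM in KO mice, and *Dlx6* at 12.8 to 34.7 CPM in WT and 25.3 to 33.3 CPM in KO mice. WT 2 was the lowest mouse for both.

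Markers of other interneuron and GABAergic subtypes were above 0 for 9 and below 0 for 9 of 18 genes tested (median log2 fold change 0.028, and -0.063 without KO 3 to 0.085 without WT 2). *Cck*, a peptide that cortical excitatory neurons also make, was at 39.2, 259, 14.5 and 30.3 CPM in WT and at 70.4, 9.73, 97.4 and 7.17 CPM in KO mice, and so had WT 2 and KO 3 as its highest mice, as *Vip* did. Its log2 fold change was -0.90 (SE 1.07) and became 0.72 without WT 2. *Tac1*, the substance P precursor of striatal neurons, was at 76.8 CPM in WT 2 and 154 to 283 CPM in the other 7 mice (log2 fold change -0.046, SE 0.35).

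Receptors of the peptides were above 0 for 7 and below 0 for 4 of 11 tested (median log2 fold change 0.12, and -0.0025 without KO 2 to 0.15 without KO 4). *Adcyap1r1*, a receptor of the VIP relative PACAP, had a log2 fold change of 0.12 (SE 0.21) and *Sstr2*, a somatostatin receptor, -0.14 (SE 0.35). Genes of dopamine synthesis and handling were above 0 for 9 and below 0 for 1 of 10 tested (median log2 fold change 0.17, and 0.12 without KO 1 to 0.53 without WT 1). Over all genes tested, 8786 were above 0 and 8883 below. Of the 10, *Dbh* had only 0 to 26 counts per library and *Slc6a3* only 7 to 30. *Qdpr* and *Spr*, enzymes that regenerate and make the tetrahydrobiopterin cofactor of tyrosine hydroxylase, differed little, with log2 fold changes of 0.014 (SE 0.085) and 0.077 (SE 0.10). In DESeq2 with sex as a covariate 6 of 87 genes of these lists were called (1.13% of all genes were). In that fit 20 had an unadjusted p under 0.05, beside 4.65% of 30047 genes not filtered on low counts. In edgeR with sex as a covariate 0 of 82 were called and 18 had an unadjusted p under 0.05 (6.95% of all genes). The 6 genes are named here after their values were seen. *Gabrg1*, *Ddc*, *Slc18a2* and *Npy2r* were higher in KO mice, and *Vipr1* and *Cck* lower. KO 2 was the highest mouse for each gene called higher, and WT 2 for each gene called lower. In edgeR without a covariate, the log2 fold change of *Cck* was 0.72 without WT 2. All of the 6 genes but *Vipr1* are in the study's own table.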

How the data were processed

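Periventricular RNA of 8 mice was measured by polyA RNA-seq. The authors converted base calls with bcl2fastq 2.20, estimated transcript reads with Salmon (version not given in the sources used here) against Gencode M29, and deposited estimated counts per gene, not normalized, and estimated counts, TPM and effective lengths per transcript. How transcripts were summed to genes, and whether reads were counted by strand, is not given in the sources used here. Deposited effective lengths served only to check the order of levels.

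For testing, estimates were rounded to integers. KO and WT mice were compared in edgeR 4.0.16 (R 4.3.3) by the quasi-likelihood test, with TMM normalization, filterByExpr, no covariate and Benjamini-Hochberg adjustment over 17669 genes, at an adjusted p under 0.1. Standard errors are the fold change over the square root of F. TPM was summed over transcripts matched through Gencode M21. Names were found for 94.8% of 54307 identifiers. The alternatives were DESeq2 1.42.0 with or without sex as a covariate, its size factors in edgeR, other filters on low counts, sex or replicate number in edgeR, and each mouse left out in turn. Leaving out WT 2 and KO 3 together was chosen after seeing the data. In simulated data of 17669 genes in this comparison, edgeR found 189 of 200 genes changed by 2 on the log2 scale and made 22 other calls, and made 0 calls with 0 genes changed. Counts were drawn independently for each gene, so shifts shared by many genes of a library, such as those of WT 2, were not simulated. The simulation therefore checks the code and does not give the power of the real comparison.

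The 10 genes, the lists and the motif were chosen with earlier results of these data known. Named genes are the 10, *Lrig1*, from each list the genes with an adjusted p under 0.1, an unadjusted p under 0.05 or no overlap between genotypes and the 2 highest by median TPM, and the 5 most like *Gad1*, *Gad2* and *Slc32a1*. An item that this rule names is not reported here. Other named genes are markers, genes set beside *Th*, and DESeq2 calls with sex. The authors' own fold changes and p-values were not used. Replicate numbers did not pair the mice.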

Additional observations from a re-analysis of the deposited data

Results flagged for a closer look

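A mouse counts as far from its group where its gap to the nearest of the 4 mice exceeds Dixon's 95% limit, which chance passes in about 1 of 20 groups. Of 82 groups looked at, 12 (14.6%) had such a mouse, and many of the 12 share a mouse. The percentages among them repeat values of *Vip*, *Npy*, *Gad1* and *Gad2* already given. WT 2 was far from the other WT mice in 9 of the 12. It was low for *Gad2* (277 CPM, nearest 603), *Slc32a1* (174 CPM, nearest 372), *Abat* (391 CPM, nearest 666) and *Gabbr1* (876 CPM, nearest 973). It was high for *Vip* (37.1 CPM, nearest 3.94), for *Cck* (259 CPM, nearest 39.2), for *Vip* as a percentage of *Gad1* plus *Gad2* (5.14%, nearest 0.288%), for *Npy* as the same percentage (8.23%, nearest 2.47%), and for the summed CPM of the 9 cortical excitatory markers (6509, nearest 3092).

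KO 2 was high for *Gabrg1* (88.7 CPM, nearest 59.7) and for the summed CPM of the septal and hypothalamic markers (450, nearest 86.9). WT 4 was high for *Calb2* (45.4 CPM, nearest 13.2), although KO 2, at 60.6 CPM, and KO 4, at 36.6 CPM, were in the same range.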

How the results depend on the processing

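The number of the 10 GABAergic genes called was 0 in 15 of the 16 alternatives and 1 in DESeq2 with sex as a covariate (*Th*). Over the 6 lists it was 0 in the same 15 and 6 in that fit. Over all genes edgeR called 1. The count was 2 with no filter on low counts, 0 with a minimum of 10 counts in every mouse, 12 in DESeq2 (4 higher and 8 lower), 2 with sex as a covariate, 201 in DESeq2 with sex (79 higher and 122 lower), and 0 with WT 2 and KO 3 both left out. With each mouse left out it ranged from 0 (without WT 1 or WT 4) to 3 (without WT 2), with 2 without WT 3. The cause of these differences was not tested. A replicate block gave 0 calls over all genes, the 10 genes and the lists. Replicate numbers did not pair the mice, with correlations of deviations between -0.22 and 0.27, and only replicate 4 correlated best with its own number.

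Of 160 values of the 10 genes under alternatives, 147 kept their direction and their side of the threshold, 12 changed sign and 1 (*Th*) became called. *Lhx6*, *Calb2* and *Th* kept their sign in all 16 alternatives. Log2 fold changes with each mouse left out ranged from -0.026 to 0.18 for *Gad1*, -0.0023 to 0.33 for *Gad2*, -0.071 to 0.25 for *Slc32a1*, -0.47 to 0.30 for *Pvalb*, -0.17 to 0.067 for *Sst*, -1.40 to 1.33 for *Vip*, -0.45 to 0.018 for *Npy*, -0.072 to 0.16 for *Abat*, -0.24 to 0.059 for *Gabrd*, -0.069 to 0.014 for *Gabbr1*, -0.097 to 0.30 for *Dlx6*, -0.19 to 0.10 for *Meis2*, -1.56 to 0.72 for *Cck*, -0.31 to 0.21 for *Tac1*, -0.34 to 0.20 for *Sstr2*, -0.053 to 0.28 for *Adcyap1r1* and -0.046 to 0.059 for *Qdpr*. *Meis2* and *Tac1* also changed sign with sex as a covariate (0.080 and 0.23), in DESeq2 with sex (0.078 and 0.23) and under the replicate block (0.019 and 0.10), as did *Pvalb* under the block (0.064). With WT 2 and KO 3 both left out, the values were 0.19 for *Pvalb*, 0.00041 for *Sst*, 0.68 for *Vip*, -0.0026 for *Abat*, -0.039 for *Dlx6*, 0.052 for *Cck* and 0.0049 for *Sstr2*. The lowest count of any of the 10 genes in a library was 47 (*Vip* in KO 4).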
